A study of Homo sapiens with 6 samples.

Results

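Broad domains are stretches built from single peaks of 10 kb or more in the YAP or TAZ lists, either 1 such peak or several that overlap between libraries. Every peak of at least 10000 bp on chromosomes 1 to 22 and X was taken from the 4 deposited lists, 11250 peaks in all, and peaks that overlapped by at least 1 bp were merged over the libraries. Positions are those of build hg19. This gave 5049 domains, against 452943 regions when the deposited peaks of every width were merged in the same way. A peak of 10 kb or more is called wide below, and a library is said to hold a domain when one of its wide peaks overlapped it. The members were chosen by peak width alone, so their number, width and support are described without a test.

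The series profiled H1299, a human lung carcinoma cell line in long use, by chromatin immunoprecipitation and sequencing (ChIP-seq). It has 2 libraries made with an antibody against YAP, 2 made with an antibody against TAZ, and 2 input samples with no antibody. The cells carried no stated genetic change and all were starved of serum for 18 hours. The inputs enter only through the peak lists. The labels do not say whether replicates came from separate cultures, and the read depth of each library is unknown, so the spread between libraries may be technical.

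YAP and TAZ are related transcriptional coactivators at the end of the Hippo pathway. They do not bind DNA themselves but reach it through partner factors, chiefly the TEAD family, and in many epithelial cells they sit at short distal enhancers that also bind AP-1. A factor of that kind is generally seen as a narrow peak, whereas wide stretches of signal are more usual for histone marks. In its broad mode the peak caller MACS2 links neighbouring enriched stretches into one peak, so the width of a peak depends both on the signal and on where the linking stops.

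The wide peaks were few but long. YAP replicate 1 had 3439 wide peaks and YAP replicate 2 had 2708, which were 0.877% and 0.766% of their deposited peaks. TAZ replicate 1 had 2052 and TAZ replicate 2 had 3051, or 0.615% and 0.982%. Averaged by antibody, YAP had 3074 ± 517 wide peaks, against 2552 ± 706 with TAZ (SD, n = 2 each), and the libraries of the 2 antibodies overlapped. Because they were long, wide peaks held 10.45% and 9.62% of all bases inside peaks with YAP, against 7.79% and 12.5% with TAZ.

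TAZ replicate 2 stood apart from the other 3 libraries in the length of its widest peaks. It had the shortest of the 4 lists, 310657 peaks, yet 69 of its peaks reached 50 kb, against 24 and 15 in the YAP libraries and 13 in TAZ replicate 1. At 20 kb the counts were 538 and 478 with YAP, against 318 and 658 with TAZ. Its part in each result is therefore given below.

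The most frequent support was a single library. The domains covered 93.4 Mb, or 3.08% of the 3035 Mb between the start of each chromosome and its last peak. Their median width was 13850 bp, with quartiles of 11389 and 19458 bp; 168 reached 50 kb and 29 reached 100 kb. All 4 libraries held 832 domains (16.5%), 3 libraries held 735, exactly 2 held 1005, and 1 library held 2477 (49.1%). Of the domains with a single library, 1063 belonged to TAZ replicate 2 and 978 to YAP replicate 1, but only 283 to YAP replicate 2 and 153 to TAZ replicate 1.

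Wide peaks of both antibodies met in 2048 domains (40.6%), which made up 56.1% of the domain bases. Both YAP libraries held 1790 domains, and at least 1 TAZ library also held 76.2% of these. Both TAZ libraries held 1133 domains, and at least 1 YAP library also held 91.3% of these. Domains held by both YAP libraries and neither TAZ library numbered 426 (8.44% of all domains). Those held by both TAZ libraries and neither YAP library numbered 98 (1.94%). The other pairs of a YAP and a TAZ library alone held between 41 and 168 domains. The counts 426 and 98 also depend on how many domains both libraries of an antibody held, 1790 with YAP against 1133 with TAZ. Without TAZ replicate 2 there were 4195 domains, 1565 of them wide with both antibodies.

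**Figure D1:**
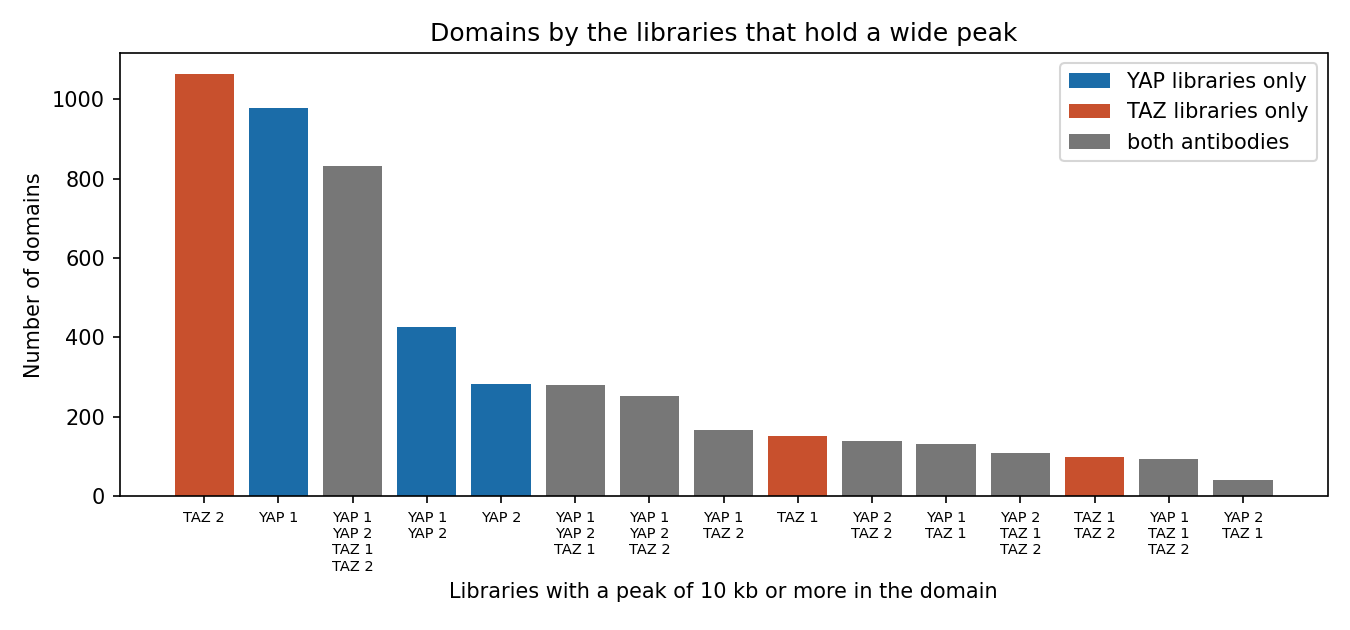
Number of domains (vertical axis) for each combination of libraries that hold a wide peak (horizontal axis); blue bars are YAP libraries only, red bars TAZ libraries only and grey bars both antibodies. The 2 tallest bars are single libraries, TAZ replicate 2 with 1063 domains and YAP replicate 1 with 978, followed by the 832 domains wide in all 4.

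Domains held by more libraries were wider, which is partly built in. A domain of 1 library was always a single peak, whereas merging peaks of more libraries lengthens a domain. A wide stretch is also more easily touched. The median width was 11825 bp for domains of 1 library, 14467 bp for 2, 17348 bp for 3 and 26857 bp for all 4. In 781 of the 832 domains held by all 4 libraries, some stretch lay inside 1 wide peak of every library. The longest such common stretch had a median of 11543 bp, and it reached 10 kb in 585 of the domains (70.3% of the 832).

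The enrichment in wide peaks, averaged over each whole peak, was moderate and varied little. An average over 10 kb or more evens out local highs and lows. How far this sets the spread and the highest values below was not tested. The authors' fold, the ratio of ChIP signal to input over a whole peak, had a median of 3.53 and 3.40 in YAP wide peaks and of 3.47 and 3.28 in TAZ wide peaks. Over all deposited peaks the medians were 3.14 and 3.14 with YAP and 3.16 and 3.03 with TAZ. The spread was narrow, and the quartiles of wide peaks lay at 3.31 and 3.71 in YAP replicate 1, and those of all its peaks at 2.76 and 3.55. The highest fold of any wide peak was 4.49, in YAP replicate 1, while single narrow peaks reached 8.07 to 10.4. A fold of 4 or more was reached by 4.71% and 0.665% of the wide peaks for YAP and by 1.85% and 0.0983% for TAZ, against 9.22%, 7.52%, 9.68% and 5.60% of all peaks in the same libraries.

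Among the peaks with the best q-values, wide peaks were about as frequent as in the whole list for YAP and less frequent for TAZ. The 20000 peaks with the highest −log10 q contained 209 and 146 wide peaks of YAP, against 91 and 103 of TAZ. That was 6.08% and 5.39% of the YAP wide peaks and 4.43% and 3.38% of the TAZ wide peaks, while those 20000 peaks were 5.10%, 5.66%, 5.997% and 6.44% of the 4 lists in the same order. The median −log10 q was 5.37 and 3.97 in YAP wide peaks and 3.65 and 3.14 in TAZ wide peaks, against 3.88, 3.09, 2.78 and 2.5 for all peaks. Fold and −log10 q come from the same peak calls as width and are a description.

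No step was seen at 10 kb. Peaks of 10 to 11 kb in YAP replicate 1 had a median fold of 3.50, and those of 9 to 10 kb one of 3.44; the pairs were 3.38 and 3.36 in YAP replicate 2, 3.46 and 3.42 in TAZ replicate 1, and 3.24 and 3.18 in TAZ replicate 2. The 12 peaks just inside, 3 from each library, were 10001 to 10005 bp wide with a fold of 2.85 to 3.95. The 12 just outside were 9994 to 9999 bp wide with a fold of 2.97 to 3.71. Median fold was lowest among peaks of 500 to 1000 bp, between 2.86 and 3.01 in the 4 libraries. It was higher in each wider class of every library, up to 3.61 and 3.44 for YAP, against 3.52 and 3.35 for TAZ among peaks of 20 kb or more.

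In each list, wide peaks were also the ones that the other libraries covered most fully. Peaks of 20 kb or more in YAP replicate 1 had 89.4% of their bases inside deposited peaks of another library, as a mean over the other 3, and those of 10 to 20 kb had 83.6%. Peaks of 5 to 10 kb had 77.1% and those under 500 bp 46.1%. The same classes, from widest to narrowest, gave 91.6%, 87.4%, 82.2% and 55.3% for YAP replicate 2 and 93.4%, 90.1%, 84.9% and 59.8% for TAZ replicate 1. In TAZ replicate 2 the gradient was shallower, with 80.1%, 75.9%, 73.9% and 62.1%. These shares also depend on how much of the genome the other lists cover.

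**Figure D2:**
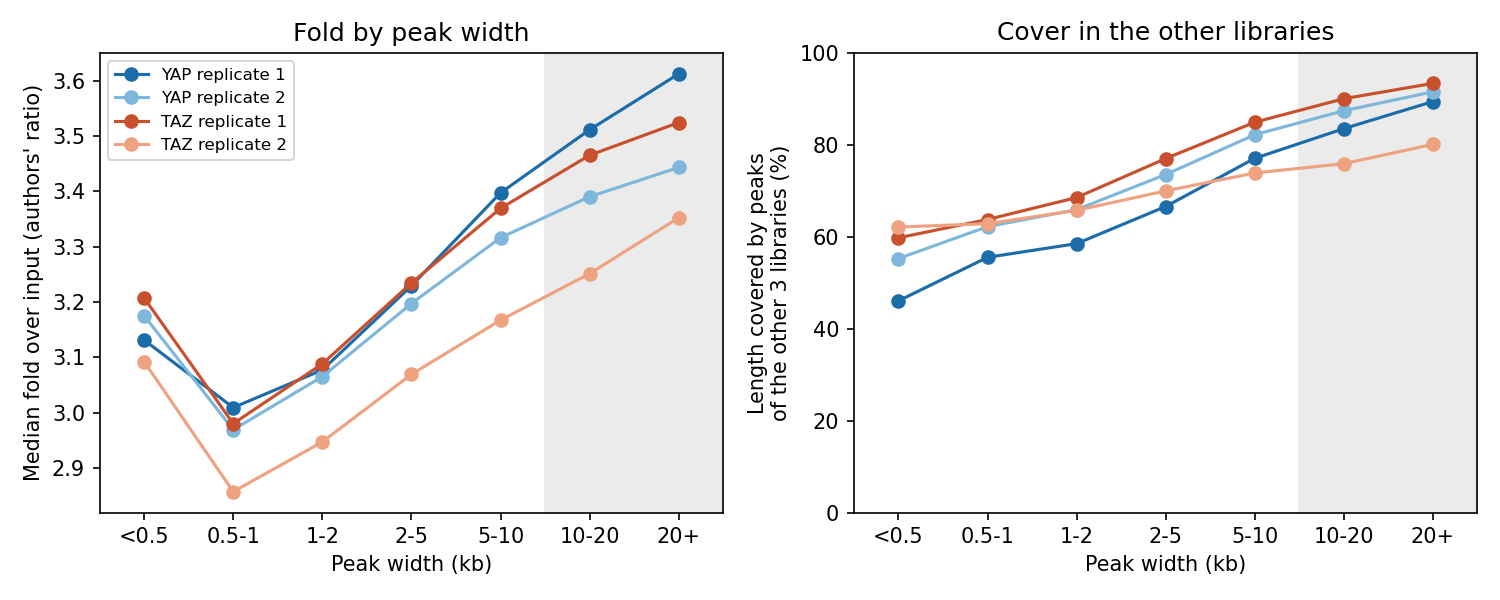
Median fold over input (left, axis not from 0) and percent of peak length covered by deposited peaks of the other 3 libraries (right, mean of the 3), by width class of the peak in kb; each line is 1 library and the shaded classes are the wide peaks. In all 4 lines both measures increase from the class of 0.5 to 1 kb to that of 20 kb or more, and TAZ replicate 2 ends lowest in both, at 3.35 and 80.1%.

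Cover was then measured in a library that had no part in the choice: domains were merged from 3 libraries and the peaks of the fourth, of any width, were laid over them. The median share of a domain covered was 87.7% in YAP replicate 1 and 84.7% in YAP replicate 2, and it was 78.5% in TAZ replicate 1 but 84.5% in TAZ replicate 2. The mean cover was 79.6%, 81.8%, 77.6% and 83.0% in the same order, against 17.5%, 15.3%, 13.8% and 14.5% over 293439 windows of 10 kb. In each of the 4 libraries the cover was thus 4.54 to 5.73 times that of the windows.

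Most domains were covered to at least 50% in the library left out. The share was 86.6% in YAP replicate 1, where 9.72% of the windows were covered to that extent, and 93.0% in YAP replicate 2, where 8.31% were. It was 91.2% in TAZ replicate 1, against 7.13% of windows, and 95.5% in TAZ replicate 2, against 8.56%. The library left out held a wide peak of its own in 54.6% and 44.6% of the domains for YAP and in 33.6% and 45.3% for TAZ. Wide peaks touched 2.84% and 2.24% of the windows with YAP, against 1.67% and 2.63% with TAZ. Domains are longer than the windows of 10 kb, so they are more easily touched.

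With 2 libraries each, the antibodies could not be separated by a test of this cover. It averaged 86.2% ± 2.1 with YAP and 81.5% ± 4.2 with TAZ (SD of the 2 medians), a difference of 4.69 percentage points. A two-sided exact permutation over libraries returned p = 0.33, the lowest value that 2 against 2 can reach. The difference was 9.18 points between the replicates numbered 1 and 0.209 between those numbered 2. Without YAP replicate 1 it was 0.592, and without TAZ replicate 1 it was 1.73; without TAZ replicate 2 it was 7.36.

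The domains lay in wider neighbourhoods rich in peaks. In the library left out, cover was 75.8% to 81.6% at 2 to 5 kb inside the edge and 70.5% to 77.2% in the outermost 1 kb of the domain. It was 18.1% to 27.6% in the first 1 kb outside and 48.4% to 56.2% at 2 to 5 kb outside, leaving out bases of other domains. From there it decreased slowly, to 29.0% to 35.2% at 200 to 500 kb, still above the mean of the windows. The smallest space between neighbouring peaks was 1049 and 1033 bp in the YAP lists and 1017 and 1029 bp in the TAZ lists. A dip is therefore built in for the library that set an edge, which has no peak within 1 kb of it. The dip plotted is that of the library left out, which had no part in setting the edges. Whether the spacing of its own list adds to that dip was not tested.

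**Figure D3:**
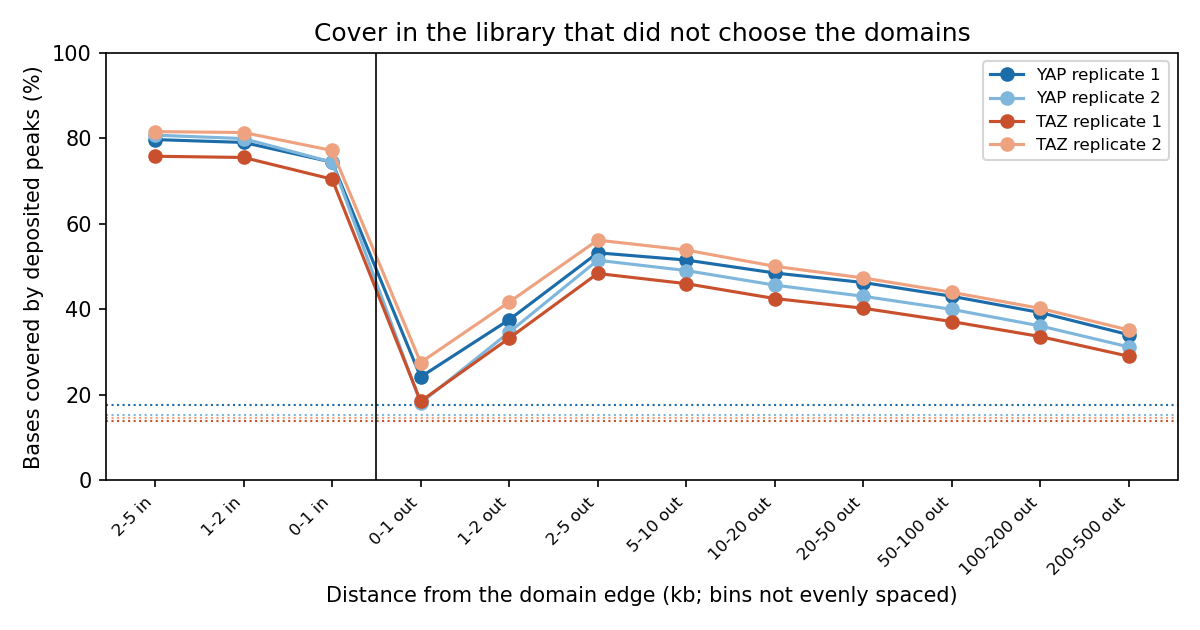
Percent of bases covered by deposited peaks (vertical axis) in bins of distance in kb inside (in) and outside (out) the edge of domains chosen without the library plotted; each line is 1 library and the dotted line of the same colour its mean over 10 kb windows. All 4 lines drop from at least 70.5% in the last 1 kb inside to at most 27.6% in the first 1 kb outside, then return to 48.4% to 56.2%.

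Where a library held no wide peak in a domain, it nearly always had smaller peaks there, but these covered the domain to varying degrees. YAP replicate 1 lacked a wide peak in 1885 domains, of which 3 had no peak at all, and covered a median of 67.1% of them. YAP replicate 2 lacked one in 2688, with 2 empty and a median of 74.6%. TAZ replicate 1 lacked one in 3309, with 1 empty and 71.3%, and TAZ replicate 2 in 2294, with 5 empty and 74.8%. At least 50% was covered in 71.0% and 87.5% of these domains with YAP, and in 86.8% and 91.8% with TAZ. In YAP replicate 1 the lower quartile of cover was 46.0%. Only 10 domains (0.198%) lacked a peak in at least 1 library, whereas 45.7% of the 10 kb windows did. In all 4 libraries at once, 4130 domains (81.8%) were covered to at least 50%, against 4.62% of windows. Both contrasts with the windows are partly built in. Every domain was chosen by a wide peak in at least 1 library and is longer than a window, whereas a window need hold no peak.

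The smaller peaks were typically 3 per domain. The longest of them had a median of 5898 and 6253 bp with YAP, and 5790 and 6152 bp with TAZ. The longest uncovered stretch had a median of 2172 and 1713 bp with YAP, and 1805 and 1651 bp with TAZ. When peaks of a list were joined across gaps of up to 2 kb, a run of 10 kb or more reached 67.6% and 80.6% of the domains that had lacked a wide peak with YAP and 79.0% and 83.1% with TAZ. Such runs were themselves common: they touched 11.5% and 9.95% of the windows with YAP, against 8.59% and 9.98% with TAZ. The windows are shorter than the domains and so less easily touched. Within those runs the gaps between deposited peaks were all between 1 and 2 kb.

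In domains held by both libraries of one antibody alone, cover by the other antibody was similar between the sets, except that YAP replicate 1 covered less. In the 426 domains held by both YAP libraries and neither TAZ library, TAZ replicate 1 covered a median of 77.1% and TAZ replicate 2 of 76.4%, and none was empty. The longest TAZ peak there had a median of 6852 and 6721 bp. In the 98 domains held by both TAZ libraries and neither YAP library, YAP replicate 1 covered a median of 69.0% and YAP replicate 2 of 77.3%, again with none empty. The lowest cover was found in the 1063 domains of TAZ replicate 2 alone, with 52.3% and 62.6% in the YAP libraries and 62.0% in TAZ replicate 1. At least 50% was covered there in 53.8% and 72.9% of the domains by YAP and in 71.9% by TAZ replicate 1. In the 978 domains of YAP replicate 1 alone, YAP replicate 2 covered 79.3%, TAZ replicate 1 71.7% and TAZ replicate 2 70.3%.

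Of the domains wide with YAP alone, the widest lay on chromosome 12 from 38183300 to 38239130. YAP covered 96.7% and 91.4% of it, and TAZ 50.9% and 19.7%. It lay within 2 Mb of a stretch of 1 Mb or more with no peak in any library, as did the fourth, on chromosome 19 from 24511794 to 24554179, with 97.1% and 99.8% for YAP, against 42.7% and 11.3% for TAZ. In both, the mean fold was low in every library, between 2.14 and 2.49. In the others TAZ cover was higher. On chromosome 14 from 64213412 to 64260698, YAP covered 94.8% and 85.5% and TAZ 71.2% and 72.8%. On chromosome 17 from 2635632 to 2679475 the shares were 94.2% and 95.6% for YAP, against 69.1% and 80.5% for TAZ, and from 4937980 to 4977695 they were 93.9% and 93.9% for YAP, against 56.7% and 64.2% for TAZ.

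Of the domains wide with TAZ alone, the widest lay on chromosome 17 from 79369707 to 79437267, in the outer 2 Mb of the chromosome. YAP covered 47.9% and 74.5% of it with 12 and 11 peaks, while TAZ replicate 1 covered 79.9% with 9 peaks and TAZ replicate 2 all of it with 1. On chromosome 19 from 42783962 to 42831118, YAP covered 73.3% and 75.6% and TAZ 88.5% and 97.8%. On chromosome 20 from 60912297 to 60956756, YAP covered 40.9% and 44.2% and TAZ 72.6% and 93.7%, the widest space between the antibodies among these regions. The remaining pair, on chromosome 7 from 1380337 to 1418043 and on chromosome 14 from 105832393 to 105869214, lay in the outer 2 Mb. YAP covered 59.3% and 79.4% of the first and TAZ 80.2% and 97.2%; YAP covered 45.1% and 62.8% of the second and TAZ 87.1% and 88.4%. These regions were picked for this difference, so it is given without a test.

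Only as a mean over all pairs of libraries did wide peaks meet across antibodies nearly as often as within them. Single shares ran from 44.1% to 75.3% within antibodies and from 44.0% to 74.95% across them. A wide peak of YAP replicate 2 overlapped the wide peaks of YAP replicate 1 in 75.3% of cases, and the reverse share was 58.7%. Wide peaks of TAZ replicate 1 overlapped those of TAZ replicate 2 in 67.6% and the reverse share was 44.1%. Across antibodies, TAZ replicate 1 overlapped YAP replicate 1 in 74.95% and YAP replicate 2 in 73.4% of its wide peaks, both above its share with the other TAZ library. YAP replicate 1 overlapped TAZ replicate 1 in 44.0% and TAZ replicate 2 in 45.7%; YAP replicate 2 did so in 54.8% and 59.6%, and TAZ replicate 2 met the YAP libraries in 50.8% and 50.9%.

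The mean of the 4 ordered pairs within antibodies was 61.45% and that of the 8 pairs between antibodies 56.8%, a difference of 4.68 percentage points. Leaving out a library changed this difference, but it also removed every pair within that library's antibody. The value was -3.79 without YAP replicate 1 and 2.04 without YAP replicate 2, where only TAZ pairs counted as within. It was 15.3 without TAZ replicate 1 and 5.20 without TAZ replicate 2, where only YAP pairs counted as within. These values are thus not the same difference with 1 library fewer. A share depends on how many wide peaks the second library has, which differs between the lists. The borders were closest between the YAP libraries: among wide peaks that met one to one, their edges lay a median of 204 bp apart (1895 pairs), against 2762 bp between the TAZ libraries (1225 pairs) and 812 to 2292 bp between antibodies.

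Wide peaks crowded on gene-rich chromosomes, above all on chromosome 19, the human chromosome with the densest genes. Chromosome 19 held 707 domains, 14% of the total on 1.95% of the span, and domains covered 32.5% of it. Wide peaks took up 18.6% ± 0.30 of its span with YAP, against 20.2% ± 5.9 with TAZ (SD, n = 2 each). They made up 37.6% ± 0.28 of all peak bases there for YAP and 41.3% ± 9.6 for TAZ, so the wide form was more usual on this chromosome than in the lists as a whole. Next in wide-peak cover came chromosome 17, at 4.61% ± 1.04 with YAP and 4.13% ± 1.999 with TAZ. The values were 3.66% ± 0.13 with YAP and 3.26% ± 0.74 with TAZ on chromosome 7, which has 5.895 protein-coding genes per Mb, against 14.4 on chromosome 17. On chromosome 16 they were 3.22% ± 0.56 with YAP and 3.20% ± 1.77 with TAZ.

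At the other end of wide-peak cover, wide peaks were few on chromosomes 13, 18 and X. Chromosome X has 5.46 protein-coding genes per Mb, close to the 5.895 of chromosome 7. Chromosome X had 31 and 12 wide peaks with YAP, against 4 and 2 with TAZ. Chromosome 13 had 20 and 4 with YAP and 4 and 2 with TAZ, and chromosome 18 had 23 and 11 with YAP and 4 and 9 with TAZ. None of their domains was held by all 4 libraries. Peaks of any width were also sparse there. In the 4 libraries they covered 4.13% to 7.78% of X, 5.88% to 9.05% of chromosome 13 and 10.0% to 13.7% of chromosome 18. On chromosome 19 they covered 46.5% to 50.6%. Across the 23 chromosomes, the share of the span inside domains had a Spearman's rho of 0.786 with the number of protein-coding genes per Mb. In single libraries the rho of wide-peak cover with gene number was 0.861 and 0.752 for YAP, against 0.745 and 0.666 for TAZ, and that of all peaks was 0.781 and 0.767 for YAP, against 0.792 and 0.810 for TAZ. Chromosomes share libraries and inputs, so these are descriptions.

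**Figure D4:**
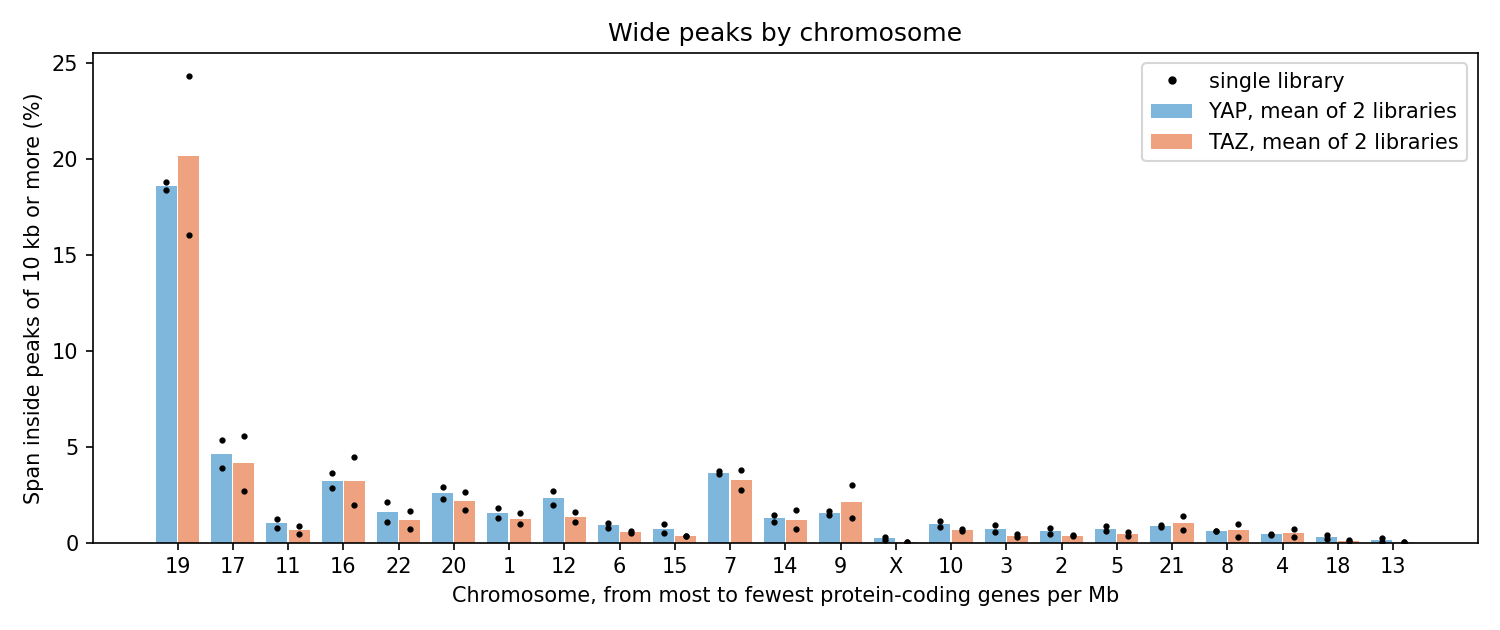
Percent of each chromosome's span inside wide peaks (vertical axis), with chromosomes ordered from most to fewest protein-coding genes per Mb; bars are means of the 2 YAP and the 2 TAZ libraries and dots are single libraries. Chromosome 19 stands far above the rest, at 18.4% to 18.8% for YAP and 16.0% to 24.3% for TAZ, while no other chromosome exceeds 5.54% in any library.

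Within chromosomes the domains were clustered. Of 3027 windows of 1 Mb, 2124 (70.2%) held no domain, and 114 windows (3.77%) held 50% of all domain bases. Neighbouring domains lay a median of 26363.5 bp apart, and 1545 of 5026 neighbouring pairs (30.7%) were within 10 kb. The fullest window was chromosome 19 from 1000001 to 2000000, where domains took up 95.9% of the sequence. Wide peaks alone covered 41.3% and 65.4% of it for YAP and 62.0% and 91.4% for TAZ, and peaks of any width covered 78.2% and 85.0% for YAP, against 86.2% and 95.03% for TAZ. Among the 10 fullest windows, 7 were on chromosome 19; the others were chromosome 7 from 73000001 to 74000000 and from 100000001 to 101000000, and chromosome 9 from 139000001 to 140000000.

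The window on chromosome 9 had the largest spread between libraries of these 10. Wide peaks covered 8.73% and 37.3% of it for YAP and 28.4% and 72.9% for TAZ, while peaks of any width covered 53.4% and 71.0% for YAP, against 66.7% and 85.1% for TAZ. The widest peak of all lay there: in TAZ replicate 2 a peak of 135931 bp ran from 139829834 to 139965764 at a fold of 3.62. YAP replicate 1 broke the same stretch into 27 peaks that covered 66.1% of it, YAP replicate 2 into 11 peaks (88.2%) and TAZ replicate 1 into 19 peaks (82.4%). In chromosome 7 from 73000001 to 74000000 the libraries were closer, with wide peaks over 58.9% and 59.3% for YAP, against 56.6% and 70.9% for TAZ.

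The 10 widest domains were all held by all 4 libraries, and 7 were on chromosome 19. They were chains rather than single peaks. The widest, on chromosome 19 from 571555 to 1033694, spanned 462140 bp in the outer 2 Mb of the chromosome. YAP peaks covered 85.2% and 92.2% of it with 44 and 25 peaks, and TAZ peaks covered 92.5% and 97.5% with 27 and 9 peaks. The longest single peak within it was 30670 and 44791 bp for YAP and 49397 and 106515 bp for TAZ, and the longest stretch common to a wide peak of each library was 30427 bp. The mean fold was nearly level, at 3.52 and 3.44 for YAP, against 3.62 and 3.65 for TAZ.

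The second widest domain, on chromosome 19 from 1884633 to 2099457, was covered to 82.3% and 92.4% by YAP and to 90.0% and 98.6% by TAZ. The third, on chromosome 7 from 73831205 to 74041649, broke the pattern of the libraries: YAP replicate 1 covered 95.7% of it with only 8 peaks and YAP replicate 2 90.3% with 15, against 91.5% with 14 peaks and 94.8% with 9 for TAZ. Just beside it, on chromosome 7 from 73678523 to 73828455, YAP covered 91.4% and 94.9% and TAZ 94.99% and 97.4%. Others lay near the start of chromosome 19. From 1429063 to 1627929 YAP covered 79.4% and 87.8% and TAZ 84.1% and 95.5%; from 1198678 to 1355482 YAP covered 81.3% and 91.1% and TAZ 91.3% and 98.7%.

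In the remaining domains of these 10 TAZ replicate 2 again had the highest cover. On chromosome 19 from 3434982 to 3590354, YAP covered 71.3% and 78.1% and TAZ 83.8% and 98.6%. From 10520409 to 10677775 the shares were 85.3% and 84.6% for YAP, against 84.9% and 93.8% for TAZ, and from 45218780 to 45393094 they were 88.4% and 92.9% for YAP, against 90.4% and 97.8% for TAZ. On chromosome 9 from 139496231 to 139645676, YAP covered 63.8% and 87.8% and TAZ 81.4% and 97.5%. TAZ replicate 2 had the fewest peaks in 9 of these 10 domains, so the same stretch was least broken there; chromosome 7 from 73831205 to 74041649 was the exception.

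Another set of domains lay beside long stretches with no peak in any library. There were 20 such stretches of 1 Mb or more, and 192 domains lay within 2 Mb of one. All 4 libraries held 46 of them (24.0%), against 726 of the 4356 domains (16.7%) that lay neither there nor in the outer 2 Mb of a chromosome. Their fold was lower, with a median over domains of 2.84 and 2.92 with YAP and 2.68 and 2.53 with TAZ. Elsewhere the medians were 3.49 and 3.35 for YAP, against 3.40 and 3.23 for TAZ. These values average peaks of any width in a domain. For the wide peaks alone, the medians beside peak-free stretches were 2.81 and 2.85 with YAP and 2.68 and 2.86 with TAZ. Elsewhere they were 3.54 and 3.42 with YAP and 3.49 and 3.28 with TAZ. Borders in the domains beside peak-free stretches could be almost identical. The longest stretch common to 4 wide peaks, on chromosome 21 from 10773118 to 10860796, was spanned by 1 peak of 88167 and 88143 bp with YAP, and 88163 and 87679 bp with TAZ. That peak was the widest of YAP replicate 1, of YAP replicate 2 and of TAZ replicate 1. Long stretches without peaks are often gaps in the assembly, as at centromeres. No list of problem regions was used here, and their part in these values was not tested.

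Of the 10 domains with the longest common stretch, 6 lay beside such a stretch. Beside the one on chromosome 21 they were chromosome 10 from 39076514 to 39155040 (78392 bp in common), from 42354833 to 42402525 (47652 bp) and from 38771663 to 38819006 (39197 bp), chromosome 4 from 49093123 to 49160795 (33748 bp) and chromosome 2 from 89848484 to 89880160 (31651 bp). The mean fold on chromosome 10 from 42354833 to 42402525 was 2.60 and 2.84 for YAP, against 2.94 and 2.64 for TAZ. The others were on chromosome 19, from 4099166 to 4185824 (45828 bp in common), from 5719878 to 5789144 (41554 bp), from 4797675 to 4914102 (37698 bp) and from 39651992 to 39732275 (35930 bp). In the last of these the mean fold was 3.48 and 3.43 for YAP, against 3.37 and 3.39 for TAZ.

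Each YAP library held more of the domains beside peak-free stretches than either TAZ library. YAP replicates 1 and 2 held 154 and 137 of the 192, and TAZ replicates 1 and 2 held 81 and 73. These were 80.21% and 71.35% for YAP, and 42.19% and 38.02% for TAZ. Of the domains elsewhere, YAP held 65.79% and 47.06%, and TAZ 34.8% and 51.74%. Both YAP libraries and TAZ replicate 1 thus held a larger share here than elsewhere, and TAZ replicate 2 a smaller one. Among all peaks at those positions, 1.72% and 1.70% were wide for YAP and 1.12% and 1.06% for TAZ. The values elsewhere were lower in every library, at 0.834% and 0.691% for YAP and 0.557% and 0.852% for TAZ. YAP alone, in both its libraries, held 38 of the 192 (19.8%) and TAZ alone held 1. Elsewhere, YAP alone held 376 of 4356 (8.63%) and TAZ alone 73 (1.68%). Whether this difference between positions exceeds the spread of 2 libraries was not tested.

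At the chromosome ends the order was another one. In the outer 2 Mb lay 501 domains, and TAZ replicate 2 held 428 of them, against 143 for TAZ replicate 1 and 144 and 174 for the YAP libraries. It was the only holder of 247 (49.3%), while elsewhere it was the only holder of 803 of 4356 (18.4%). Among all peaks of the outer 2 Mb, 1.61% and 2.35% were wide for YAP and 1.92% and 4.80% for TAZ. Every library was above its share elsewhere, which was 0.834% and 0.691% for YAP and 0.557% and 0.852% for TAZ. In the outer 2 Mb the 2 TAZ libraries differed more from each other than either YAP library differed from TAZ replicate 1. Both TAZ libraries without YAP held 24 of the 501 domains, and both YAP libraries without TAZ held 12.

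**Figure D5:**
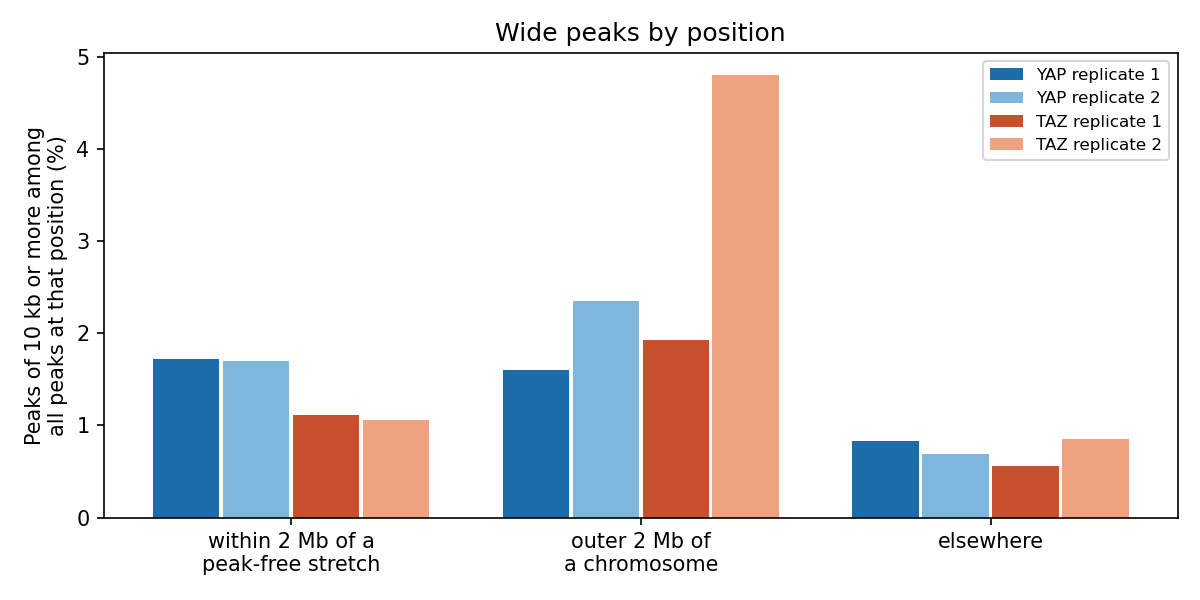
Percent of all deposited peaks at a position that are 10 kb or wider (vertical axis), for 3 kinds of position and the 4 libraries. Beside peak-free stretches both YAP bars, at 1.72% and 1.70%, stand above both TAZ bars, at 1.12% and 1.06%. In the outer 2 Mb TAZ replicate 2 is highest, at 4.80%. The bar of every library is lowest elsewhere, at 0.557% to 0.852%.

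Other regions held domains in unequal measure. Chromosome 19 from 30 to 45 Mb held 183 domains, or 3.62% of the domains on 0.494% of the span. Of these, 74 (40.4%) were wide in all 4 libraries, against 16.5% of all domains. Chromosome 12 from 38 to 50 Mb held 25 domains, or 0.495% on 0.395% of the span, which was near its share. There, 5 (20%) were wide in all 4. Chromosome 6 held 165 domains on 5.63% of the span, which was 3.27% of the domains. Chromosome 22 held 135, or 2.67% on 1.69% of the span.

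The strength of the signal in domains wide in all 4 libraries was compared after dividing each library's fold by its own mean over all peak bases. The median of this relative fold over the 832 domains was 1.11 and 1.07 for YAP, against 1.07 and 1.07 for TAZ. Both YAP libraries lay above both TAZ libraries in 244 of the 832 domains (29.3%), and both TAZ libraries above both YAP libraries in 54 (6.49%). Among 13560 windows of 10 kb that were covered to at least 50% in all 4 libraries, YAP lay above in 3346 (24.7%) and TAZ in 1427 (10.5%). These windows include sequence of the domains, so they are not a separate set.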

How the data were processed

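Peak lists were used for the 2 YAP and 2 TAZ libraries; the input samples entered only through them. The build was hg19 and the tools named are MACS2, SAMtools, Bowtie2 and cutadapt, per the submitters' processing notes; versions and settings are not given in the sources used here. There is 1 deposited list per library. The deposited fold is the authors' ratio of ChIP to input over a peak, and the deposited −log10 p and −log10 q are the peak caller's. The deposited score was 10 times −log10 q in at least 99.99% of peaks and was not used. Peak names inside all 4 deposited lists name one common input, while the list names point to an input for each replicate, so which input was used is unsettled and lists may share input reads. The lists give no read totals, so depth is unknown.

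Wide peaks were merged, and covered lengths computed, with Python 3.11.15, pandas 2.3.3 and NumPy 2.4.6, after a test on simulated data. Cover in a library left out was set beside 10 kb windows that avoided peak-free stretches of 1 Mb or more; a chromosome was counted from its first base to the last peak end in any list. Domains are given by hg19 position, counted from 1, since no annotation of that build was used here. Gene numbers per chromosome came from the RefSeq table of GRCh38.p14, for counts only. Regions named were the 10 widest domains, the 10 with the longest stretch common to all 4 libraries, the 5 widest of each antibody alone, the widest peak of each library and the peaks nearest 10 kb. The domains and rules were chosen with earlier results of these data known. The joining across 2 kb, the fold comparison and the position classes were chosen after seeing the data.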

Additional observations from a re-analysis of the deposited data

Results flagged for a closer look

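Peaks of 10 kb or more also lay outside chromosomes 1 to 22 and X, in sequence that no comparison above used. YAP replicate 1 had 9 of them and YAP replicate 2 had 8, and TAZ replicates 1 and 2 had 8 each. In each library all of them lay on 1 sequence. Their fold was 2.81 to 3.57 and 2.97 to 3.60 in the YAP libraries. It was 2.44 to 3.63 and 2.68 to 3.45 in the TAZ libraries. No peak list of a control sample was at hand to set beside them.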

How the results depend on the processing

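Width settings changed the counts by construction: a minimum of 5 kb gave 19609 domains, 9596 of them wide with both antibodies, and 20 kb gave 1025 and 342. The mean of the 4 medians of cover in the library left out, 83.8%, was 77.9% at 5 kb and 87.7% at 20 kb. The YAP minus TAZ difference in that cover, 4.69 points, was 7.39 at 5 kb and 0.567 at 20 kb. A q-value limit of 0.01, merging within 1 kb, 50% cover, leaving out positions near peak-free stretches, and including all sequences changed no direction. Where applied, they kept counts within 1.5 times and the mean cover within the average SD between replicates of an antibody. The within minus between difference stayed within the SD of the 4 shares within antibodies. The YAP minus TAZ difference was judged by its sign alone. Leaving out each library in turn gave 4149 to 4985 domains and 1565 to 1786 wide with both antibodies. It gave a cover of 83.3% to 88.7%, highest without TAZ replicate 2. The within minus between difference, 4.68 points, ranged from -3.79 (without YAP replicate 1, a reversed sign) to 15.3. With 1 library left out, only the other antibody has pairs within it, so that range does not compare like with like. The YAP minus TAZ cover ranged from 0.592 to 7.36, and the cause was not tested. Replicate numbers do not show a shared origin. With the number as a block the YAP minus TAZ difference was again 4.69 points, with an exact sign-flip p of 0.5, the smallest that 2 pairs allow. The difference between YAP replicates in window cover had a correlation of 0.146 with that between TAZ replicates.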
